A study of Mus musculus with 4 samples.

Results

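The NF-kappaB transcription factor genes and the genes of their I-kappaB partners were followed on 4 Affymetrix arrays of B16-OVA cells. The family was taken as the 10 genes Nfkbia, Nfkbib, Nfkbie, Nfkbiz, Nfkb1, Nfkb2, Rel, Rela, Relb and Bcl3, found by gene symbol. These members were chosen with earlier results of these data known. Probes that the platform annotation gives to a single symbol named 9 of the 10, with 1 probe each, among 22180 genes measured. Nfkb1 was not analysed here. B16-OVA cells are mouse melanoma cells engineered to make ovalbumin, and all arrays came from this line in DMEM with 10% FBS, which are its growth medium and serum. RNA of 2 arrays came from mock transfected cells and RNA of the other 2 from cells transfected with AT90ES, per the labels. The protocol describes a double-stranded 90mer DNA delivered with Lipofectamine 2000, a cationic lipid, for 6 hours. That text is worded alike for the mock arrays and does not say whether mock cells met the lipid alone, so an effect of the lipid and an effect of the DNA cannot be told apart. The labels do not say that the 2 arrays of a group came from separate cultures, so p-values reflect only array-to-array spread, which may be technical.

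NF-kappaB proteins are dimers that wait in the cytoplasm, bound by I-kappaB inhibitors. In the canonical arm, a kinase complex marks the inhibitors for destruction and frees dimers of RelA, c-Rel and p50. In the non-canonical arm, the precursor p100 made from Nfkb2 is cut to p52, which pairs with RelB. Several of the inhibitor and subunit genes are textbook targets of NF-kappaB itself, which makes them feedback genes. Sensing of DNA in the cytoplasm is known to switch on both interferon regulatory factors and NF-kappaB.

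Cells given AT90ES had higher levels of 3 of the 9 measured family genes: Nfkbie, Nfkb2 and Nfkbia. They rose between 2.55-fold and 3.92-fold, and no family gene fell. Over all genes, 92 of 22180 were called higher, which is 0.415%, and 0 were called lower by limma at an adjusted p under 0.05 (1017 were lower at an unadjusted p under 0.05). The log2 difference was above 0 for 9 of the 9 genes, with a median of 0.51, against a median of -0.02 over all genes, of which 45.4% lay above 0, though Nfkbiz fell just under 0 with arrays centred on reference genes (-0.0069). On 8 of the 9 genes both AT90ES arrays lay above both mock arrays, a pattern that 17.7% of all genes showed. As the members were chosen with earlier results known, these counts describe them and are no independent evidence. By size, the changes were large for a pair of inhibitors and 1 precursor, smaller for the other subunits, and smallest for Nfkbib and the nuclear I-kappaB genes. In bulk RNA a large change in a few cells and a small change in all cells cannot be told apart, nor can fewer cells and less RNA per cell.

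**Figure D1:**
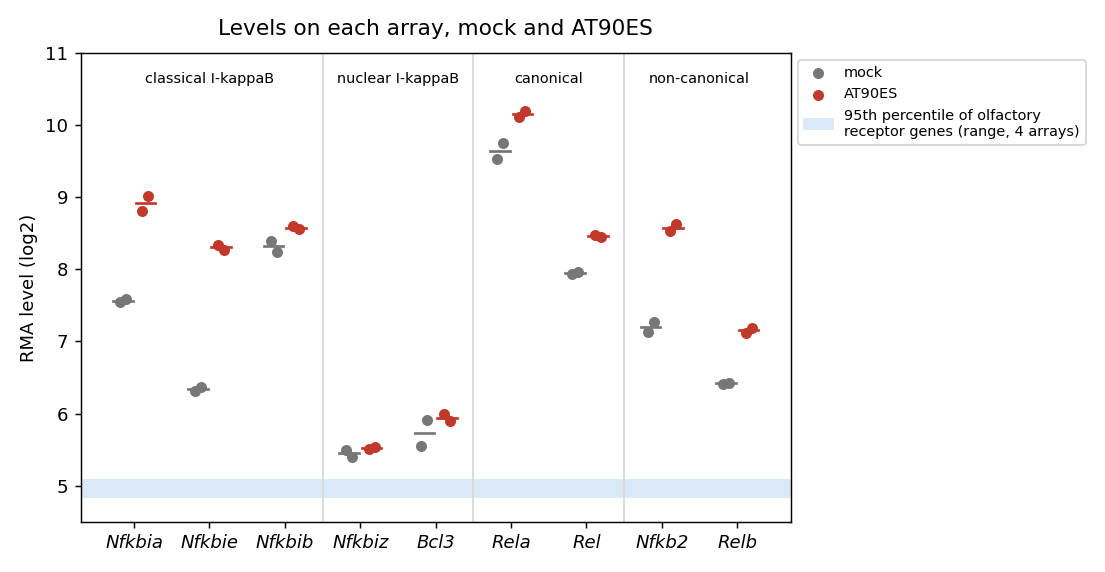
RMA levels (log2) of the 9 measured genes on each array, with mock arrays in grey, AT90ES arrays in red and a bar at the mean of each pair. The blue band is the range over the 4 arrays of the 95th percentile of 1105 olfactory receptor genes, and every gene lies above it, while the 2 groups overlap only for Bcl3.

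All levels below are RMA values on the log2 scale, and they are set against each other only within a gene, since probes differ in brightness. As a guide to background, 1105 olfactory receptor genes were taken, which melanoma cells are not expected to use, and their 95th percentile lay between 4.85 and 5.07 over the arrays. Each of the 9 genes lay above it on each array. Some olfactory receptor genes lie above it too, so this alone does not show expression. It is also a low bar: a gene with a mean level of 5.09, Nfkbid, was brighter than only 46.0% of all genes. Nfkbiz, at 5.40 to 5.53, and Bcl3, at 5.56 to 5.99, were the closest to it.

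Among the classical inhibitors, Nfkbie changed most. It encodes I-kappaB epsilon, which holds dimers with RelA and c-Rel in the cytoplasm. It was measured at 6.31 and 6.37 in mock cells and at 8.34 and 8.27 in AT90ES cells. The groups were 1.90 apart at their nearest arrays, far more than the arrays of a group differed. Nfkbie rose by 1.97 ± 0.12 on the log2 scale (SE, n = 2 arrays per group), a 3.92-fold change with a 95% interval of 3.21 to 4.78 (limma adjusted p = 0.00379). It ranked 39 of 22180 genes by size of rise.

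Nfkbia encodes I-kappaB alpha, the inhibitor that is destroyed first on canonical signalling and then made again. It stood at 7.54 and 7.59 in mock cells and at 8.81 and 9.02 in AT90ES cells. Both AT90ES arrays were thus well above both mock arrays, and they differed from each other more than the mock arrays did. The rise was 1.35 ± 0.13 on the log2 scale, or 2.55-fold with a 95% interval of 2.04 to 3.18 (limma adjusted p = 0.0243). Leaving out any single array ended this call. Such fits leave 1 array in a group and called fewer genes over the whole series too, so the loss is not particular to Nfkbia. The size of the rise moved little in these fits, from 1.25 to 1.45.

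Nfkbib encodes I-kappaB beta, an inhibitor that is generally degraded more slowly. Its levels were 8.40 and 8.24 in mock and 8.60 and 8.56 in AT90ES cells. The groups did not overlap, but their nearest arrays were only 0.16 apart, about the gap between the mock arrays. The log2 difference of 0.26 had a 95% interval from -0.05 to 0.56 and did not pass (limma adjusted p = 0.605). A change of up to 1.47-fold lies within that interval.

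Nfkbiz and Bcl3 encode nuclear I-kappaB proteins, which act on promoters with p50 or p52 rather than holding dimers back. Nfkbiz was measured at 5.49 and 5.40 in mock and 5.50 and 5.53 in AT90ES cells. The groups were 0.0062 apart at their nearest arrays and so nearly level, with a log2 difference of 0.07 and a 95% interval from -0.22 to 0.36 (limma adjusted p = 0.91). Bcl3 was measured at 5.56 and 5.90 in mock and 5.99 and 5.89 in AT90ES cells. It was the family gene whose groups overlapped, with a log2 difference of 0.21, a 95% interval from -0.17 to 0.60 and a limma adjusted p = 0.745. Without mock replicate 1 the Bcl3 difference was 0.04, and without mock replicate 2 it was 0.39. Neither gene passed.

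Among the subunits, Nfkb2 was the single gene called. It encodes p100, which is both the precursor of p52 and an inhibitor of other dimers until it is cut. Its levels were 7.14 and 7.27 in mock and 8.53 and 8.63 in AT90ES cells. The nearest arrays of the groups lay 1.26 apart, again far beyond the gaps within a group. Nfkb2 rose by 1.37 ± 0.12 on the log2 scale, or 2.59-fold with a 95% interval of 2.10 to 3.21 (limma adjusted p = 0.0189). As for Nfkbia, leaving out any single array ended the call, in fits that called fewer genes over the whole series too. The rise stayed between 1.31 and 1.44 in these fits.

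Relb encodes RelB, the partner of p52. It had levels of 6.41 and 6.43 in mock and 7.12 and 7.19 in AT90ES cells. Its arrays were tight within groups and 0.69 apart between them. The log2 difference was 0.74 ± 0.12, or 1.67-fold with a 95% interval of 1.37 to 2.03, and it did not pass over all genes (unadjusted p = 0.000838, limma adjusted p = 0.128). Relb did pass in 3 of the 14 alternatives: with an intensity trend in the spread (adjusted p = 0.00617), with dim genes left out (0.0349) and with arrays centred on their median (0.0494).

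Rela encodes RelA, the subunit that carries the main activation domain of the canonical arm. It stood at 9.53 and 9.76 in mock and 10.11 and 10.20 in AT90ES cells. The groups did not overlap, although the mock arrays were 1 of the looser pairs. The log2 difference was 0.51 ± 0.13 (95% interval 0.18 to 0.84, unadjusted p = 0.00985, limma adjusted p = 0.375). Rel encodes c-Rel, best known from lymphocytes, and stood at 7.94 and 7.96 in mock and 8.47 and 8.44 in AT90ES cells. Its pairs were tight, and its log2 difference of 0.51 ± 0.11 was the same size (95% interval 0.23 to 0.79, unadjusted p = 0.00473, limma adjusted p = 0.303). Both passed in 1 of the 14 alternatives, that with an intensity trend (adjusted p = 0.00231 for Rela and 0.00849 for Rel). With that trend 6 of the 9 family genes were called higher, against 1.94% of all genes.

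**Figure D2:**
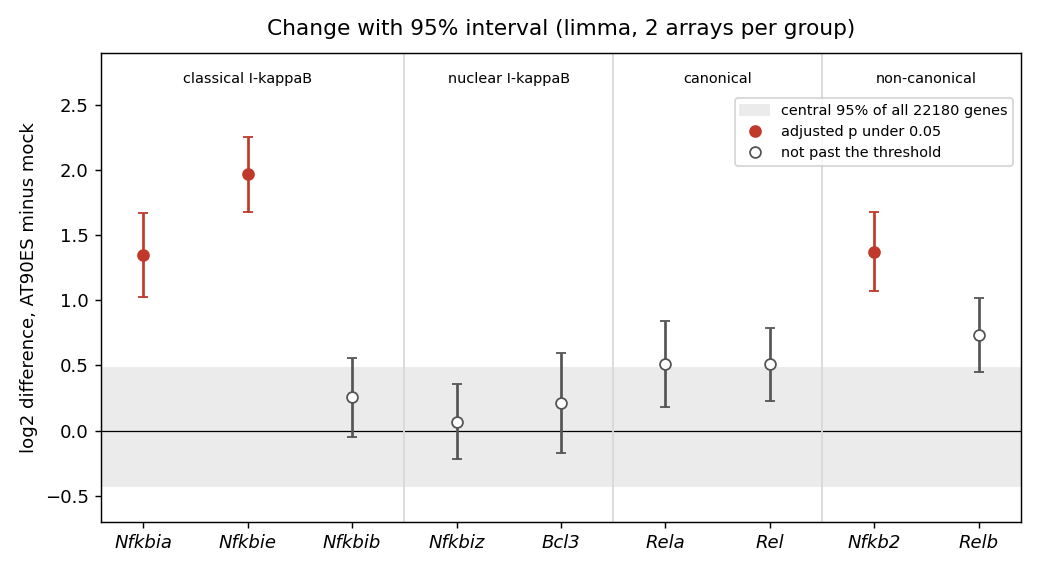
Log2 difference (AT90ES minus mock) of each measured gene with its 95% interval from limma, filled where the adjusted p was under 0.05. The grey band holds the central 95% of all 22180 genes, from -0.43 to 0.48, and Nfkbie, Nfkb2 and Nfkbia lie wholly above it.

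By size of change the order was Nfkbie, Nfkb2, Nfkbia, Relb, Rela, Rel, Nfkbib, Bcl3 and Nfkbiz. The intervals of Nfkb2 and Nfkbia overlapped almost wholly, and those of Relb, Rela and Rel overlapped each other. The interval of Nfkbie began at 1.682, next to the upper bound of 1.681 for Nfkb2. The interval of Nfkbia began at 1.03, next to the upper bound of 1.02 for Relb. The lower end of the order, from Rela to Nfkbiz, was not separated by intervals between neighbours.

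Inhibitors and subunits were set side by side by role, as a description. The 3 classical inhibitors had a median log2 difference of 1.35 with 2 called, the 2 nuclear I-kappaB genes had 0.14 with 0 called, and the 4 measured subunits had 0.62 with 1 called. By arm, the canonical subunits Rela and Rel had a median of 0.51 with 0 called, and the non-canonical subunits Nfkb2 and Relb had 1.06 with 1 called. The canonical arm lacks Nfkb1 here. The roles were not uniform inside, since Nfkbib sat far below the other classical inhibitors.

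Changes of 4 pairs of genes were compared within arrays, which cancels any scaling shared by an array. The rise of Nfkbie exceeded the difference of Nfkbib by 1.71 on the log2 scale, with a pooled SD of 0.11 within groups. Between single arrays of the 2 groups this excess ran from 1.59 to 1.83. For Nfkbia over Nfkbib the excess was 1.09 with an SD of 0.16 and ran from 0.87 to 1.32. These inhibitor genes of a single class therefore differed in response by more than the arrays of a group did. Nfkb2 over Rela, a pair taken up because Nfkb1 was not analysed here, gave 0.87 with an SD of 0.05 and a range of 0.82 to 0.92. Relb over Rela gave the smallest excess, 0.23 with an SD of 0.10 and a range of 0.11 to 0.34, and with 1 array left out it lay between 0.12 and 0.33. The sign was the same in each combination of arrays for the 4 pairs. An exact two-sided permutation test of 2 against 2 arrays gave an unadjusted p = 0.333 for each pair, and this is the smallest p the design allows.

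The promoters of the risen genes are shown with that of Nfkbib, the classical inhibitor whose difference did not pass, because genes of this family are known as NF-kappaB targets themselves. RefSeq promoters of build GRCm38.p6 matched 7 of the 10 genes by symbol, and Nfkb1, Nfkbiz and Relb were not among them. The window is the 250 bases before the annotated start, 5′ to 3′ on the strand of the gene, and capitals mark matches to the kappaB consensus, the classic decamer bound by NF-kappaB dimers, on either strand. Adjacent or overlapping matches run together.
Nfkbia, chr12:55492648-55492897, minus strand: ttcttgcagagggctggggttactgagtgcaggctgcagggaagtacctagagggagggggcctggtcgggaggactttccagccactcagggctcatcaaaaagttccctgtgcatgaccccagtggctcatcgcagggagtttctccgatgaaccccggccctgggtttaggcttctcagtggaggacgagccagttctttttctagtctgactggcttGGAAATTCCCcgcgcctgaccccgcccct
Nfkbie, chr17:45555450-45555699, plus strand: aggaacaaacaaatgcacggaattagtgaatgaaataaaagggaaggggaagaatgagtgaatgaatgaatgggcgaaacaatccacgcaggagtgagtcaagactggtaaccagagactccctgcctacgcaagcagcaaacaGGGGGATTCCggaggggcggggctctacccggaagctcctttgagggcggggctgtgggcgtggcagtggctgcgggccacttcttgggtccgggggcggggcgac
Nfkb2, first annotated start, chr19:46304487-46304736, plus strand: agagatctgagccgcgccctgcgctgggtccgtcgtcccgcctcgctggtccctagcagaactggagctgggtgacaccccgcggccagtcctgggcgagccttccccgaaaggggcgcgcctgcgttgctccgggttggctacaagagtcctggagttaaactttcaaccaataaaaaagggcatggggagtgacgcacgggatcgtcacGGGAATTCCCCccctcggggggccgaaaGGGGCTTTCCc
Nfkbib, chr7:28766645-28766894, minus strand: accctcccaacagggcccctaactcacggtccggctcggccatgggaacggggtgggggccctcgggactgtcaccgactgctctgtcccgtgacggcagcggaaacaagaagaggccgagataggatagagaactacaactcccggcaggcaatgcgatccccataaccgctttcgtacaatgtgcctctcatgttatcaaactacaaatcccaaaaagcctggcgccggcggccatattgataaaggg

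The Nfkbia window held 1 match, which began 29 bases before the start. The Nfkbie window held 1, at 106 bases before the start. The first Nfkb2 window held 3, at 39, 38 and 11 bases, the first and second of them overlapping, and each of the windows at the other 2 annotated starts of Nfkb2 held 1. Rel held 2 overlapping matches, at 92 and 91 bases, although its difference did not pass. The windows of Nfkbib, Rela and Bcl3 held none. A match was thus present in at least 1 window of 4 of the 7 genes: the 3 that rose and Rel, which did not pass. A share by gene was not computed over all promoters, and a link between matches and changes was not tested. Counted by window, 6 of the 9 windows of these genes held it, against 7.25% of 32851 promoter windows of this length. Each window of Nfkb2 is among the 6, so the windows are not separate genes. A match describes letters only, and binding was not measured.

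For each risen gene, the 3 genes outside the family with the most similar pattern were taken. Similarity was the distance between log2 profiles over the 4 arrays, each centred on its own mean. Family genes and gene models with no approved name were left out of this search, so closer ones may exist among them. Nearest to Nfkbie were Ifitm3, Znfx1 and Sesn2, at distances of 0.08, 0.13 and 0.15. Nearest to Nfkbia were Cdkn1a, Polr2g and Lgals3bp, at 0.10, 0.10 and 0.11. Nearest to Nfkb2 were Zfp385a, Mdm2 and Polr2g, at 0.02, 0.05 and 0.05. With 4 arrays in 2 groups, such a distance mostly reflects an equal step between the groups: Zfp385a rose by 1.39 and Ifitm3 by 2.05 on the log2 scale.

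In 4 lists of genes that act in or beside NF-kappaB signalling, 52 of 58 genes were measured, and limma called 0 higher and 0 lower. Since 0.415% of all genes were called higher, a count of 0 among 52 is near the background and is no result about these lists. At an unadjusted p under 0.05, 4 were higher and 1 lower, where the background over all genes was 4.5% higher and 4.59% lower. The 5 were Myd88, Tnfrsf12a, Birc2 and Tnfaip3 on the higher side and Birc3 on the lower. The median log2 difference was 0.12, and Chuk, a kinase of the same complex as Ikbkb, was not analysed here.

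The kinase and ubiquitin machinery that removes the inhibitors had 22 measured genes, 0 called, with a median of 0.07. Ikbkb, the kinase that marks I-kappaB in the canonical arm, was measured at 7.67 and 7.59 in mock and 7.50 and 7.74 in AT90ES cells, a log2 difference of -0.01. Ikbkg, the scaffold of the kinase complex, had a difference of 0.02. Skp1 and Cul1, which build the ligase that tags the inhibitors, were at 0.18 and -0.09. Myd88, the adaptor of Toll-like and interleukin-1 receptors, was named after its value was seen. It had the largest difference of these lists, 0.88, and did not pass (limma adjusted p = 0.183).

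The 5 IKK-related kinases and partners, which lead to interferon regulatory factors, had a median of 0.11 with 0 called. Tbk1 stood at 0.21, Azi2 at 0.11 and Ikbke at -0.06. The 9 measured regulators of the non-canonical arm had a median of 0.08 with 0 called. Map3k14, the kinase NIK that starts the cutting of p100, was measured at 5.31 and 5.16 in mock and 5.20 and 5.31 in AT90ES cells, a difference of 0.02. Tnfrsf12a and Ltbr, receptors that feed this arm, had differences of 0.44 and 0.18. Birc2 and Birc3, ligases that keep NIK low, were named after their values were seen. They had opposite signs, 0.57 and -0.48, and neither passed (limma adjusted p = 0.498 and 0.375). The Birc2 difference was 0.28 without mock replicate 1 and 0.86 without mock replicate 2.

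The 16 measured negative regulators outside the family had a median of 0.17 with 0 called. Tnfaip3, the feedback enzyme A20, was measured at 5.01 and 5.45 in mock and 5.70 and 5.68 in AT90ES cells. Its groups did not overlap, but its difference of 0.46 did not pass (limma adjusted p = 0.513), and on 1 array it lay under the olfactory receptor percentile. Nfkbid, a further nuclear I-kappaB gene, had a difference of 0.13 and lay under that percentile on mock replicate 1. Tax1bp1 and Pias1 each had a difference of 0.16. Nfkbia and Nfkbie passed the test and Tnfaip3 did not, but the difference between them was not tested.

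**Figure D3:**
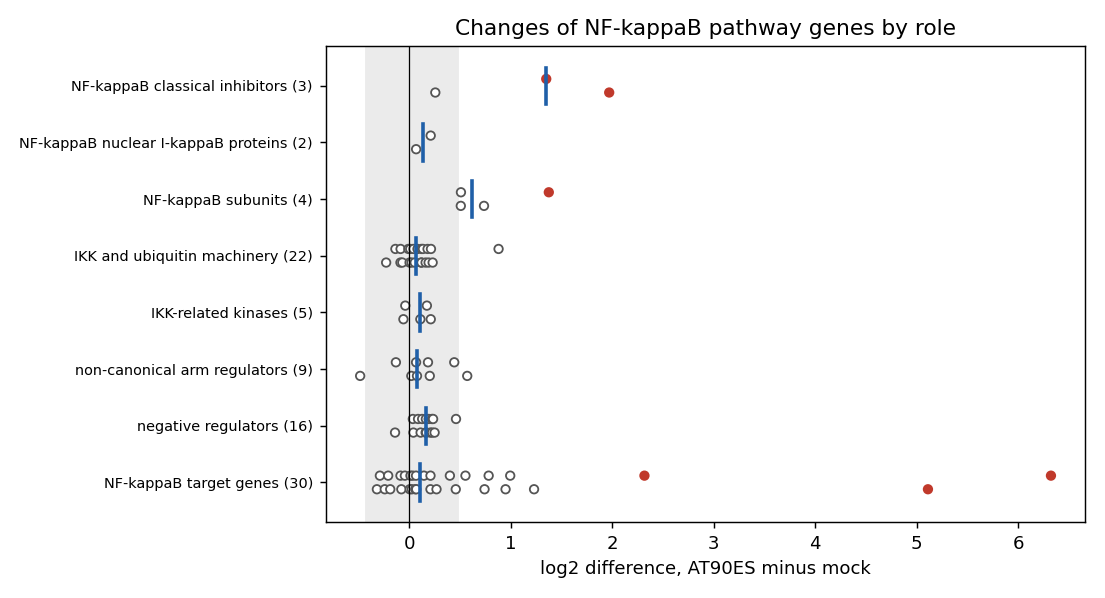
Log2 differences (AT90ES minus mock) of the pathway genes by role, with the number measured in brackets, filled red where the limma adjusted p was under 0.05 and a blue line at each median. The grey band holds the central 95% of all genes, and the genes called are 2 classical inhibitors, 1 subunit and 3 target genes.

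Of 30 genes known as NF-kappaB targets, 3 rose, 0 fell and 27 did not pass, where 0.415% of all genes were called higher. The median log2 difference was 0.11. Only 20 of the 30 lay above the olfactory receptor percentile on all 4 arrays, so a gene that did not pass may not have been detected. The risen genes were the chemokines Ccl5 and Cxcl10, at 6.32 and 5.11 on the log2 scale, and Csf1, the macrophage growth factor, at 2.32 (limma adjusted p = 0.00344 for Csf1). Ccl5 and Cxcl10 are also known targets of interferon regulatory factors. Irf1, named after its value was seen, had a difference of 1.23 and did not pass (limma adjusted p = 0.0622). It passed in 4 of the 14 alternatives: with the replicate block (adjusted p = 0.0488), an intensity trend (0.000517), dim genes left out (0.0230) and arrays centred on their median (0.00251). At an unadjusted p under 0.05, 9 of the 30 were higher and 0 lower, against 4.5% and 4.59% of all genes. Besides the 3 called and Irf1 these were Cxcl1, Ier3, Il6, Junb and Sdc4, named after their values were seen, with differences of 0.99, 0.95, 0.74, 0.78 and 0.55. Il6 lay under the olfactory receptor percentile on all 4 arrays, and Cxcl1 lay under it on mock replicate 2 and above it on 3 arrays. With an intensity trend 8 of the 30 were called higher, against 1.94% of all genes. These lists were drawn up with earlier results of the data known, so their counts are no independent evidence.

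Pigment cell markers were bright, as the labelled cell type would have them, with a list mean between 10.95 and 11.11. Of these markers 8 of 8, Tyr and Mlana among them, lay above the olfactory receptor percentile on all 4 arrays. That alone says little, since Nfkbid, with a mean level of 5.09 close to that percentile, was brighter than only 46.0% of all genes. Markers of other cells lay above it on all arrays for 5 of 10 genes of the myeloid list, 1 of 9 of the lymphocyte list and 4 of 10 of the fibroblast and endothelial list. The list means were 5.11 to 5.20 in mock and 4.94 to 5.08 in AT90ES cells for myeloid markers, 4.38 to 4.49 and 4.33 to 4.35 for lymphocyte markers, and 4.92 to 4.95 and 4.88 to 4.99 for fibroblast and endothelial markers. None of these markers was called in either direction by limma. At an unadjusted p under 0.05 the other-cell lists held 0 higher and 3 lower (Cd163, Cd3g and Cd4), and the pigment list held 0 higher and 1 lower, Mitf at -0.34, which was also called lower with an intensity trend. These genes were named after their values were seen. Since RMA equalises arrays, each difference is relative to the other genes.

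**Figure D4:**
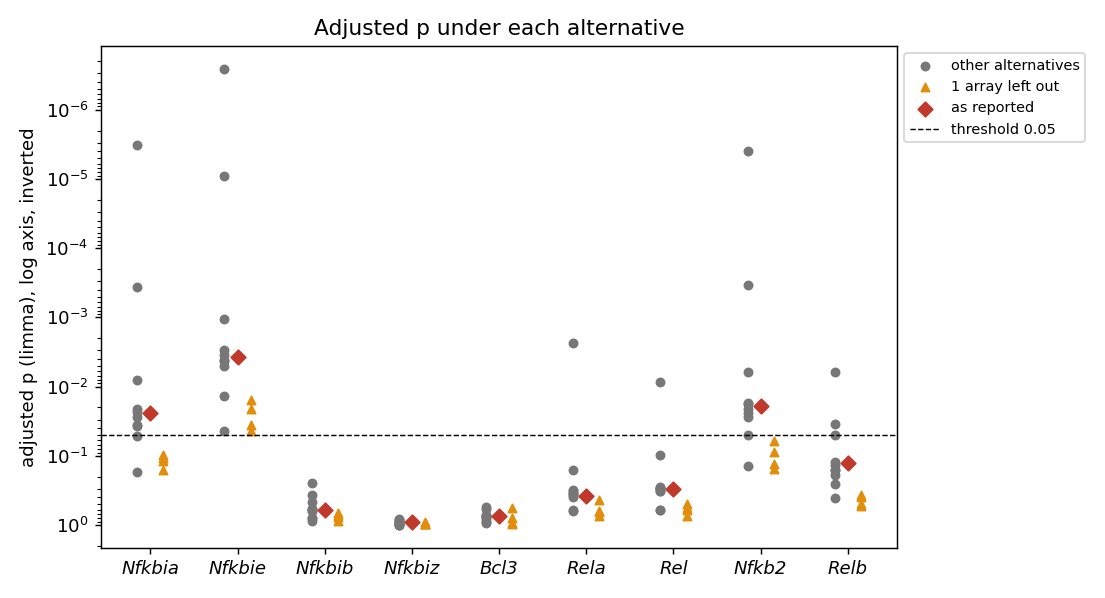
Adjusted p of each measured gene (limma, log axis, inverted) as reported, in the 4 fits that left out 1 array and in the other 10 alternatives, with the threshold of 0.05 dashed. Nfkbie lies past the threshold in all of them, Nfkbia and Nfkb2 in 8 of 14, and Nfkbib, Nfkbiz and Bcl3 in none.

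Nfkbie passed in each of the 14 alternative fits, with a highest adjusted p of 0.0438. Nfkbia and Nfkb2 each passed in 8 of the 14. Nfkbib, Nfkbiz and Bcl3 passed in 0 of them, with lowest adjusted p values of 0.243, 0.822 and 0.54.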

How the data were processed

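The authors deposited a log2 level for each probe on each array, which the submitters' processing notes credit to RMA (background correction, equalised distributions, a summary per probe set), with software, version and settings not given in the sources used here. Each array used 300 ng of RNA, per the labels. Precision is limited by the 4 arrays. Of 41345 probes, 23521 had 1 gene symbol in the platform annotation, 1814 several and 16010 none; only those with 1 symbol named a gene, and the brightest probe stood for each of 22180 genes. Of the 23521 probes with 1 symbol, 23328 matched a RefSeq gene by ID.

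AT90ES and mock were compared by limma 3.58.1 (R 4.3.3; lmFit, eBayes, no covariate, no filter), two-sided, with Benjamini-Hochberg adjustment over all genes and a threshold of 0.05. The fit had 2 residual and 3.70 prior degrees of freedom. The steps were tested on simulated data. All 10 family genes were named whatever their values. From each other list came up to 4 genes past the threshold or the 2 brightest, plus a fixed set of pathway genes. For each called member, the 3 most similar named genes outside the family were added. The members and lists were chosen with earlier results of these data known. The design named Nfkb2 against Nfkb1 as a pair; it was not analysed here. Alternatives changed the sharing of spread, the filter, scaling, probe choice, pairing and the arrays used.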

Additional observations from a re-analysis of the deposited data

How the results depend on the processing

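The count of family genes called was 3 and stayed at 3 or 4 with robust eBayes, dim genes left out, each of the 3 other scalings, the mean of all probes and the replicate block. It was 6 with an intensity trend, 1 with every probe tested separately and 1 in each fit without 1 array (lowest 1, highest 1), where the remaining array is taken to vary as the intact group does. All genes called numbered 593 with an intensity trend (431 higher, 162 lower), 171 with dim genes left out, 176 with arrays centred on their median, 28 with every probe separately and 32 to 47 without 1 array. Signalling genes called numbered 0, against 2 with an intensity trend (Myd88 and Tnfrsf12a) and 1, Myd88, with median centring. Target genes called numbered 3, against 8 with an intensity trend, 5 with dim genes left out, 6 with median centring and 4 with the replicate block, which added Irf1. The median of the classical inhibitors was 1.32 with quantile normalization repeated and 1.25 to 1.45 without 1 array, and that of the subunits was 0.61 to 0.68 without 1 array. Why these values moved was not tested. With the replicate number as a block, 3 family genes and 85 genes in all were called. Same-numbered arrays deviated in opposite directions (correlation -0.22 over genes), and a crossed block, chosen after the data were seen, called 1 family gene and 59 in all. Over family genes and alternatives, 109 outcomes kept their side of the threshold, 12 lost the call and 5 gained it, and none changed sign where called.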
